A study of Canis lupus familiaris with 15 samples.

Results

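The tumour of Rosco, a dog with lymphoma, was compared between 1 sample retrieved after death and 3 fine needle aspirates taken after relapse. The comparison uses 4 of the 15 arrays of the series, chosen by the labels alone. All 3 aspirates came from tumour that had relapsed after metformin, and their titles also call them samples without remission. The labels give a tumour sample retrieved after death, without the site, the interval since death, the instrument or the last treatment. All 4 samples therefore share 1 animal, its earlier failed chemotherapy and its metformin treatment. The 3 aspirates carry no label of separate sites, so their spread is that within 1 dog, and it may be technical. The post-mortem sample has no replicate. Per the labels' protocols, first samples were biopsies, later ones aspirates, and RNA was accepted at an integrity number of 8.0 or above. The other 11 arrays hold the skin, first biopsy, second resistant aspirate, failed-chemotherapy aspirate and remission aspirate of Rosco, and skin, biopsies or an aspirate of 4 further dogs.

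Lymphoma cells grow on a scaffold of fibroblasts, blood vessels and the reticular cells of the lymph node. Fibroblasts lay down collagens and proteoglycans, endothelium carries receptors for vascular growth factors and adhesion molecules, and reticular cells release the chemokines that hold lymphocytes in place. Tissue cut off from blood becomes hypoxic, a state in which cells stabilise the factor HIF1A and raise its target genes, while dying cells activate caspases and dividing cells express the machinery of DNA synthesis and mitosis.

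RNA was labelled with Cy3 and each sample was hybridised to 1 canine Agilent array with 43603 probes. A level is the log2 signal minus that of the array's 75th percentile, so a level of 0 is the signal that 75% of probes stay below. That percentile was a processed signal of 425 on the post-mortem array and 434 to 765 on the relapse arrays. Probes well above background made up 75.9% after death and 68.3 to 71.5% at relapse, and 0 spots were saturated. The number of arrays limits the precision. Relapse arrays correlated with each other at r = 0.982 to 0.993 over 27116 targets, and the post-mortem array correlated with relapse aspirates 1, 2 and 3 at 0.978, 0.973 and 0.964. A target is a gene or, where no gene name could be attached, the identifier of the probe. Only 5.01% of probes had a gene name. The post-mortem sample and relapse aspirate 1 were on 1 slide, relapse aspirates 2 and 3 on another, and all 4 were scanned on the same day.

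A B cell marker was at similar levels on both sides, which does not by itself show lymphoma. MS4A1, the gene of the B cell surface protein CD20, was at 2.04 after death and at 2.18, 2.33 and 1.78 in relapse aspirates 1, 2 and 3. The post-mortem value lay inside the relapse range, with a difference of −0.05 (SE 0.31). MYC, a growth-promoting transcription factor, was at 3.86 after death against 3.90, 3.77 and 4.36. Both MYC and CD40, a B cell receptor for T cell help, lay inside the range, as did CD38. BCL2, which blocks apoptosis, was higher by 0.35 and BCL6, a germinal centre repressor, by at least 1.68-fold. These 2 lay above the relapse range, and BCL6 was not well above background on any relapse array. Of 7 B cell list genes with a name, 6 were measured.

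Most measured genes of matrix, vessels and lymph node stroma were at a higher level in the post-mortem tumour than in every relapse aspirate. In the fibroblast and matrix list, 13 of 17 genes lay above the highest relapse value and 1 lay below the lowest, with a median difference of 1.73. In the endothelium list 11 of 13 lay above and 0 below, with a median of 1.74, and in the lymph node stroma list 6 of 7 and 0, with a median of 1.59. With the normexp background correction these medians were 1.06, 0.94 and 1.08. A gene could pass the filter on dim probes through the post-mortem array alone, which favours genes that are high there. Among genes well above background on all 4 arrays, 11 of 15, 8 of 10 and 5 of 6 lay above, with medians of 1.73, 1.41 and 1.59. The cell cycle, T cell and mitochondrial lists had medians below 0, at −0.45, −0.56 and −0.59. Medians of the cell death and antigen presentation lists were also below 0 against every aspirate, at −0.27 and −0.20 against the relapse mean. Below the relapse range lay 5 of 10 cell cycle genes, 6 of 14 T and NK cell genes and all 4 mitochondrial genes. Over all 27116 targets, 36.8% lay above the relapse range and 29.3% below it, and the median difference was 0.06. These shares are the background for every count below, and named genes alone gave 34.2% and 32.1%. In bulk samples, fewer cells of a type and less RNA per cell cannot be told apart.

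Limma, with the lone post-mortem array assumed to vary like the relapse arrays, called 0 of 27116 targets at an adjusted p below 0.05 (0% called). The smallest adjusted p was 0.0508 and 64 targets shared it. At an unadjusted p below 0.05 there were 4128 targets (15.2%), of which 2910 were higher after death (10.7%) and 1218 lower (4.49%). The count of calls depended on the aspirates: it was 107 without relapse aspirate 1, 0 without relapse aspirate 2 and 431 without relapse aspirate 3, where 408 were higher and 23 lower. Other scalings gave 75 calls (quantile normalisation), 144 (normexp background, 141 higher and 3 lower) and 0 (median centring). No gene named here passed the threshold in the chosen fit, so the values are described and the adjusted p is given for the leading genes.

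Differences of 2-fold or more beyond the relapse range were mostly upward. By at least 1 on the log2 scale, 1647 targets lay above the range (6.07%) and 106 below it (0.391%), so 94% of those outside were higher. The split moved with the scaling: 75.4% were higher with median centring (1239 above, 405 below) and 85.3% with quantile normalisation. Median centring also moved the median of all targets from 0.06 to −0.18, so a difference within that shift has no firm sign. It was 83.2% without relapse aspirate 3, when 375 lay below. Without relapse aspirates 1 and 2 the numbers below were 194 and 198. Of the 1647 targets above, 568 were not well above background on any relapse array. Among the 23442 targets well above background on all 4 arrays, 865 lay above by at least 1 (3.69%) and 97 below (0.414%). Among 1101 named genes, 88 lay above by at least 1 (7.99%) and 8 below (0.727%). The median absolute difference was 0.37 against a median relapse range of 0.48, and 40.2% of targets differed by more than their relapse range.

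**Figure D1:**
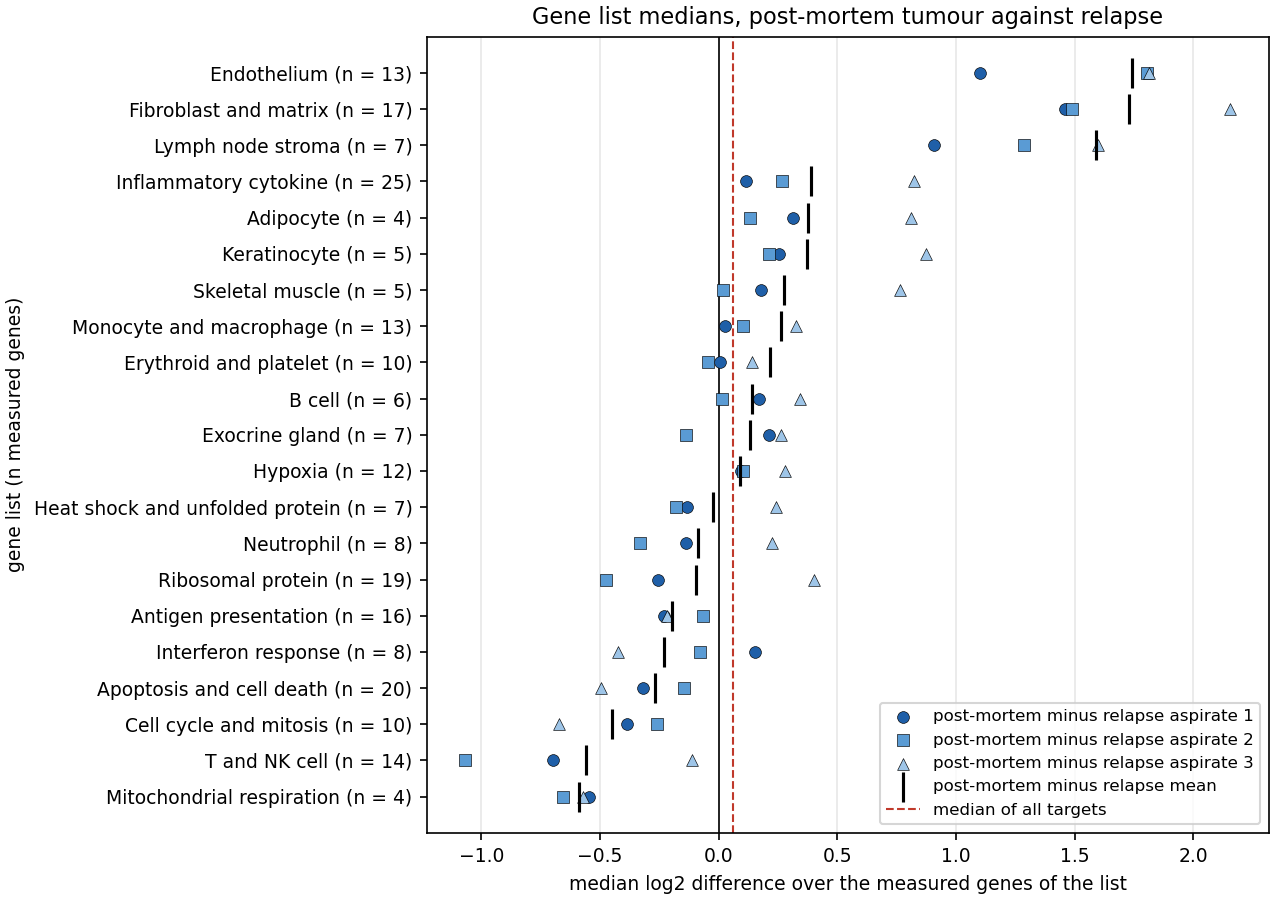
Median log2 difference of the post-mortem tumour over the measured genes of each list of 4 or more genes, with 1 marker per relapse aspirate and a black bar for the difference from the relapse mean. The 3 stromal lists lie furthest to the right, with medians of 1.59 to 1.74. The cell cycle, T cell, mitochondrial, cell death and antigen presentation lists lie to the left of 0 against all 3 aspirates. The dashed line is the median of all targets, 0.06.

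DCN encodes decorin, a small proteoglycan that coats collagen fibrils. Its level was 2.03 after death and −3.15, −1.89 and −4.12 in relapse aspirates 1, 2 and 3. The post-mortem value stood 3.92 above the highest aspirate, and the aspirates themselves spread over 2.24. The difference was 5.08 (SE 0.87, 33.9-fold, limma adjusted p = 0.109), and both probes of DCN were higher, by 5.05 and 5.08. Among the 15 arrays the post-mortem level ranked 8th from the lowest.

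The genes of type I collagen, the main fibre of connective tissue, were the next members. COL1A1 was at 3.80 after death against 0.11, −0.80 and −0.22, a difference of 4.10 (SE 0.41, 17.1-fold, limma adjusted p = 0.055). COL1A2 was at 5.43 against 2.47, 1.71 and 1.65, a difference of 3.49 (SE 0.41, 11.3-fold, adjusted p = 0.0585). The aspirates lay close together in both genes and far below the post-mortem sample. All 4 probes of COL1A1 were higher, by 1.36 to 4.10, and all 6 of COL1A2, by 0.80 to 3.49. Over 15 alternatives the limma adjusted p of COL1A1, COL1A2 and DCN ran up to 1, the value with all 15 arrays in the fit. COL1A1 and COL1A2 were below 0.05 in 2 of the 15, at 0.00638 with the normexp background and 0.0461 without relapse aspirate 1. Without relapse aspirates 2 and 3 they were at 0.102 and 0.059 for COL1A1 and at 0.112 and 0.0614 for COL1A2. DCN was below 0.05 in 1, at 0.0101 with the normexp background.

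Other matrix genes followed in smaller steps. TNC, a glycoprotein of remodelled matrix, was at −1.35 after death against −3.86, −3.74 and −4.21, a difference of 2.59. TIMP1, an inhibitor of matrix metalloproteinases, was at 5.09 against 3.00, 2.45 and 2.42. It stood above all other 14 arrays. Its relative TIMP2 was higher by 1.56. TIMP3, another relative, was not well above background on any relapse array and was at least 1.66-fold higher. FBN1, the gene of the microfibril protein fibrillin, was higher by 1.94, the proteoglycan BGN, well above background on 2 relapse arrays, by 1.77, the fibroblast surface protein THY1 by 1.73 and the growth factor BMP4 by 2.38. Of the 15 genes well above background on all 4 arrays, 9 stood above the range by at least 1.

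Not every fibroblast gene went along. DPT, a decorin-binding matrix protein, was at 0.82 after death against 0.58, 0.89 and −0.10, inside the range. S100A4 and COL6A3 were inside the range too, with differences of 0.26 and −0.25. PDGFRB, the growth factor receptor of fibroblasts and pericytes, was at −1.97 against −1.84, −1.43 and −1.37 and was the list's 1 gene below the range. VIM and MMP9 lay above it by 0.15 and 0.35, MMP9 with only 2 of its 4 probes higher. Of the 17 genes BGN and TIMP3 were counted only because they were well above background after death. Counted by probe, 32 of 38 probes lay above the range (84.2%) and 1 below, against 34.6% and 33.4% of all 1753 probes of named genes.

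Endothelial genes were also mostly higher after death than in all 3 aspirates, in 11 of 13 measured genes. KDR, the main receptor for vascular endothelial growth factor, was at 0.00 after death against −2.69, −3.20 and −4.13, a difference of 3.34 (SE 0.60, 10.1-fold, limma adjusted p = 0.118). SELE, the adhesion molecule E-selectin of activated endothelium, was at −1.03 against −2.71, −5.12 and −4.29. Here the aspirates spread over 2.42, and the gap to relapse aspirate 1 was 1.67. The difference of SELE was 3.01 on this probe but 0.95 on its other probe, so its size is uncertain. ANGPT2, a ligand of the TIE2 receptor, was well above background on 2 of the 3 relapse arrays and higher by 2.96 as measured, and TFPI, which restrains the tissue factor pathway of clotting, by 2.87. Both lay more than 2 log2 units above the highest aspirate.

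EDN1, a vasoconstrictor peptide, was at −5.45 after death and not well above background on any relapse array, so it was at least 1.48-fold higher. With EDN1 at that bound the list median was 1.07. VCAM1, which binds leukocyte integrins, was at 1.32 against −0.55, −0.48 and −0.49, a difference of 1.83 over aspirates that differed by 0.07. VWF, the platelet-binding protein that defines endothelium, was at 5.41 against 4.59, 4.59 and 3.82, and the post-mortem level was the highest of the 15 arrays. EDNRB was higher by 1.74, ICAM1 by 0.94 and SELP by 0.63. THBD and NOS3, 2 further endothelial genes, lay inside the range, at 0.10 and −0.21. ANGPT1 was named on the array but not measured, and ANGPT2, EDN1 and PDPN were counted only because they were well above background after death. By probe, 16 of 22 lay above (72.7%). The list median against relapse aspirate 1, on the same slide, was 1.1, against 1.80 and 1.81 for relapse aspirates 2 and 3.

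Lymph node stroma genes included the chemokines of the T cell zone. CCL19, a ligand of CCR7 that draws T cells and dendritic cells, was at 4.25 after death against 1.1, 1.41 and 0.82, a difference of 3.14 (SE 0.32, 8.81-fold, limma adjusted p = 0.055). CCL21, the other CCR7 ligand, was at 2.06 against 0.01, 0.77 and −1.64, a difference of 2.34 (SE 0.95). The post-mortem levels of CCL19, CCL21 and IL7, a survival factor for T cells made by reticular cells, were the highest of the 15 arrays. Over all targets, 8.80% were highest in the post-mortem sample and 3.09% lowest. CLU, a secreted chaperone abundant in follicular dendritic cells, was at 7.93 against 6.10, 6.59 and 6.33, and all 5 of its probes were higher. CXCL12 was higher by 1.60 and PDPN by 0.97, while MADCAM1 lay inside the range. By probe, 12 of 13 lay above (92.3%).

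**Figure D2:**
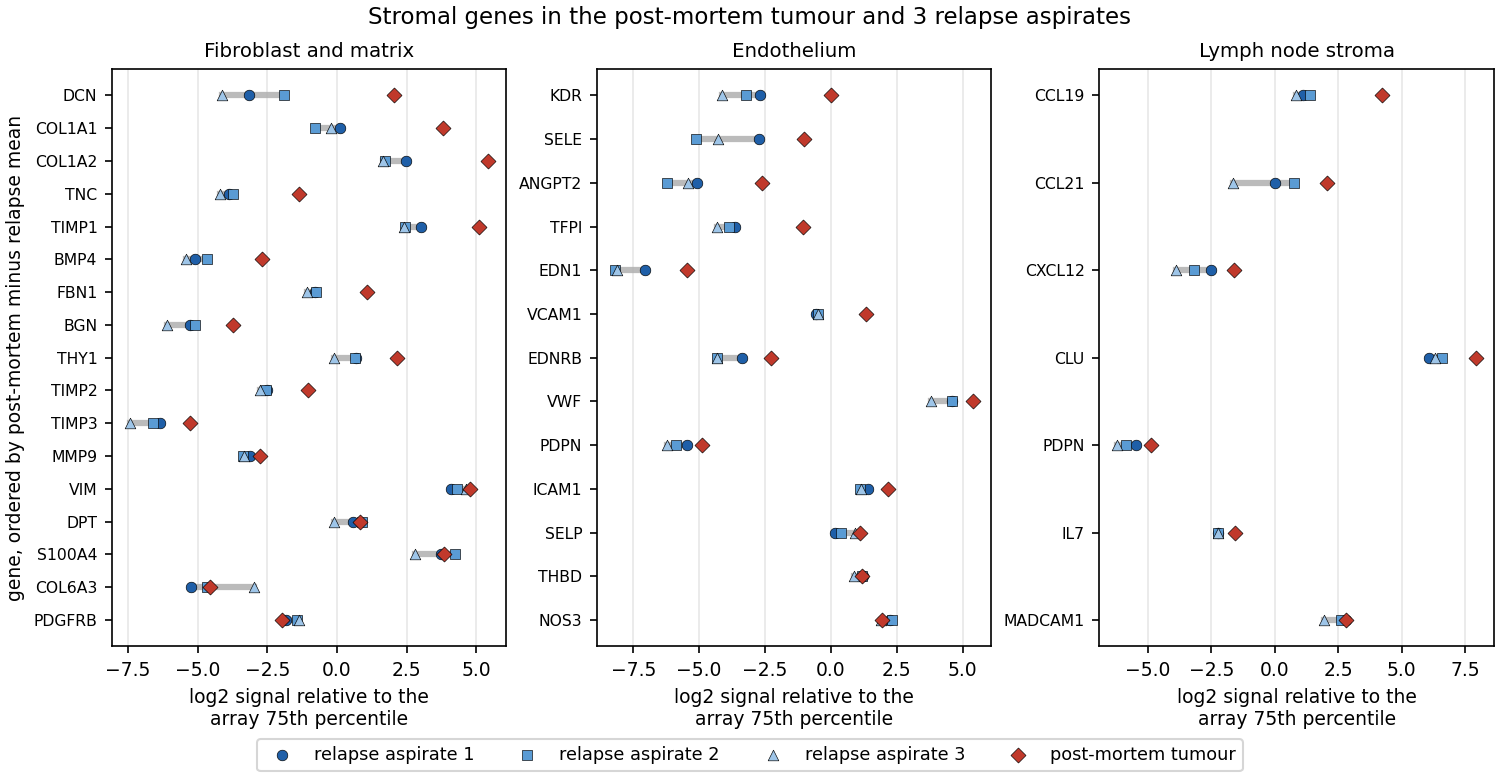
Level of each measured fibroblast, endothelial and lymph node stroma gene on the 4 arrays, as log2 signal minus the array's 75th percentile. Red diamonds are the post-mortem tumour, blue symbols the relapse aspirates and grey bars their range. In 13 of 17, 11 of 13 and 6 of 7 genes the diamond lies to the right of the bar.

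Outside the lists, several genes of the largest differences had only a lower bound, because no relapse array had them well above background. ST8SIA6, a sialyltransferase, was at −3.45 after death against −8.22, −8.10 and −7.99, at least 5.92-fold higher. SULF1, which removes sulphate groups from heparan sulphate, was at least 5.91-fold higher, and GUCY1A1, a subunit of the nitric oxide receptor, at least 7.54-fold. CHST4, a sulphotransferase of high endothelial venules, was at least 3.57-fold higher and RAPGEF3, a Rap1 exchange factor opened by cyclic AMP, at least 6.04-fold. The bound sets the bright value against the lowest signal counted as well above background on each dim array. ST8SIA6 and SULF1 were highest of the 15 arrays, and both had a limma adjusted p of 0.0508 in the chosen fit. Over 14 alternatives it ran from 0.0449 to 1 for ST8SIA6 and from 0.0461 to 1 for SULF1.

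CAV1, the coat protein of caveolae, was at −0.81 against −3.93, −4.71 and −4.74, a difference of 3.65 (SE 0.42). SERPINF1, a secreted serpin that restrains vessel growth, was higher by 3.42 on 1 probe and 2.22 on the other. TMEM47, a membrane protein of cell junctions, was higher by 2.99, with all 4 probes higher. SMOC2, a matricellular protein, was higher by 3.60 on its brighter probe but at −0.43 on the other, and ADGRL2, an adhesion receptor, by 2.93 with 1 of 4 probes at −0.37. These 2 genes are therefore uncertain.

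The stromal genes of the post-mortem tumour were compared with the rest of the series by level, with no test. COL1A1 at 3.80 stood above the earlier tumour samples of Rosco, which were 0.85 in the first biopsy, 0.41 in the second resistant aspirate, 0.29 after failed chemotherapy and 0.21 in remission. It was close to the skin of Rosco, at 4.13. DCN at 2.03 stood above failed chemotherapy (0.89) and remission (0.98) but below the first biopsy (6.48), the second resistant aspirate (6.37) and skin (7.53). KDR at 0.00 was at the level of skin (−0.06), and the earlier tumour samples lay between −3.80 and −0.37. The relapse aspirates were thus the lowest samples of Rosco for DCN, and relapse aspirate 3 was the lowest for KDR. The first biopsy and the second resistant aspirate also held exocrine gland genes at high levels. In this order, CDH1 was at 3.93 and 3.51 and LTF at 3.71 and 3.94. SLPI was at 3.87 and 3.79 and PIGR at 1.51 and 2.71. After death CDH1, LTF, SLPI and PIGR were at −1.16, −1.37, −4.09 and 0.03. The part of gland content in these contrasts was not tested.

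The drug-resistant tumour of MalcolmX was sampled by biopsy and, after metformin, by aspirate. DCN was at 3.12 in the biopsy and 4.98 in the aspirate, whereas COL1A1 was at 4.39 and 1.33 and CCL19 at 2.34 and −0.27. The second resistant aspirate of Rosco held DCN at 6.37. MS4A1 was at −7.16 in the first biopsy and −6.73 in the second resistant aspirate of Rosco, far from the 2.04 after death. The B cell marker of the later samples was thus near background in these 2. In the comparison, sample type, time since relapse, death and the single sample cannot be told apart.

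**Figure D3:**
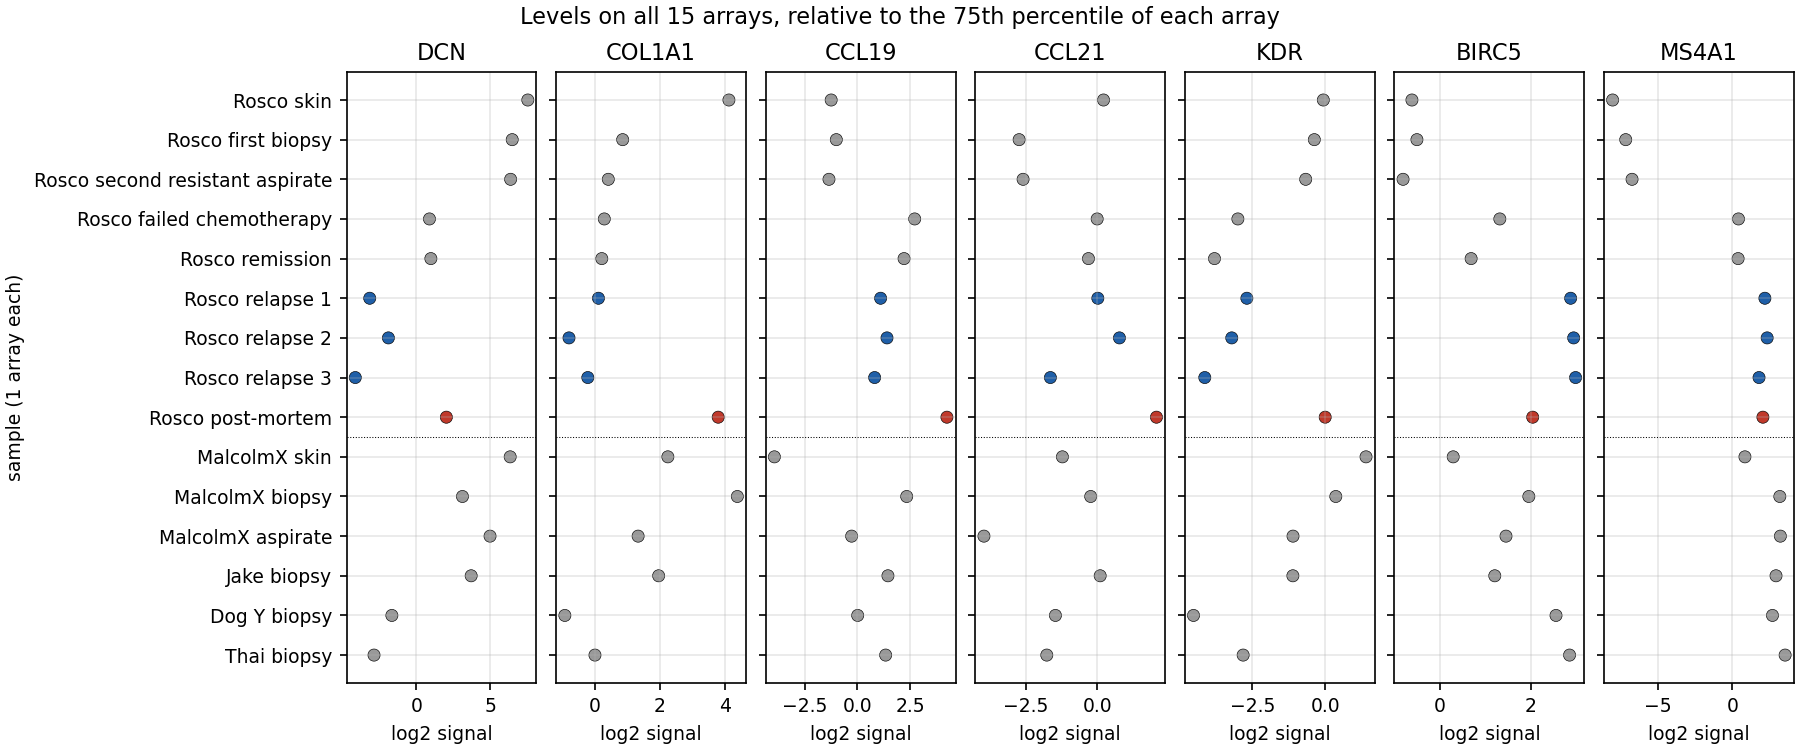
Level of 7 genes on all 15 arrays, 1 point per array, as log2 signal minus the array's 75th percentile, with the samples of Rosco above the dotted line. Red is the post-mortem tumour and blue the 3 relapse aspirates. CCL19 and CCL21 are highest after death, COL1A1 is near the skin of Rosco, and BIRC5 is below the relapse aspirates but above the other samples of Rosco.

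Markers of other tissues that a tumour sample could hold were low or near their relapse levels. Of 10 named keratinocyte genes 5 were measured, with 3 above the range and a median of 0.37. TGM1 was higher by 0.64, KRTDAP by 0.56, SPINK5 by 0.37 and KRT14 by 0.35. The summed linear level of the list was 4.77 after death and 2.78 to 4.42 at relapse. Of 8 named skeletal muscle genes 5 were measured, 2 lay above, the median was 0.27, and MYH2, MYH3 and MYH1 differed by 0.44, 0.27 and 0.20. DES, the intermediate filament of muscle, was at least 1.95-fold higher and was also the 1 measured gene of the smooth muscle list. Among 4 adipocyte genes PCK1 was higher by at least 1.24-fold and ADIPOQ by 0.70, with PPARG at 0.05 and LEP at −0.23. Of 9 named exocrine gland genes 7 were measured, 2 lay above and the median was 0.13, or −0.11 with median centring, with PIGR at 0.41, CDH1 at 0.40, LTF at 0.16 and SLPI at −0.14. The part of these tissues in the stromal differences was not tested.

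Hypoxia genes were split. ADM, a vasodilator peptide, was at −0.17 against −1.44, −1.48 and −2.20, higher by 1.53. NDRG1 was at −2.25 against −2.98, −3.19 and −3.58, higher by 1.00 on this probe but by only 0.135 on its other probe. VEGFA, the vascular growth factor, was at 4.90 against 4.68, 4.52 and 3.76, higher by 0.58 and the highest of the 15 arrays. Its other probe was higher by 1.88.

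The glycolytic and sensor genes of the list did not follow. HIF1A was at 2.83 after death against 2.87, 3.00 and 2.66, inside the range, and its sign changed with the scaling. SLC2A1, the glucose transporter, TPI1 and ALDOC were inside the range, at 0.13, 0.02 and −0.05. GAPDH was at 5.84 against 6.30, 6.31 and 6.28, below the range by 0.44 and the lowest of the 15 arrays. CA9, a carbonic anhydrase used as a hypoxia marker, was at −1.52 against −0.80, −0.45 and −1.72, with a difference of −0.53. Of the 12 genes 5 lay above the range and 1 below, and the median was 0.09, or −0.15 with median centring. By probe, 7 of 28 lay above (25%) and 12 below (42.9%), with a median of −0.28, so the sign of the list depends on whether genes or probes are counted.

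Stress and early-response genes showed no common shift. NR4A1 was at −2.51 after death against −3.14, −3.05 and −1.69, and FOSB at −0.09 against −0.03, 0.15 and −0.31. All 3 genes of that list, MYC included, lay inside the range. Of 7 heat shock and protein-folding genes 2 lay above and 3 below, with a median of −0.02. SERPINH1, the collagen chaperone of the endoplasmic reticulum, was at 2.04 against −0.14, −0.60 and −1.01, higher by 2.62. All 3 of its probes were higher, but by 0.22 to 2.62, so the size of its difference is uncertain. HSPB1, a small heat shock protein, was higher by 0.95. The chaperones DNAJA1, HSPA4 and CANX were lower by 0.40, 0.35 and 0.33, each just below the range.

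Cell death genes lay more often below the relapse range than above it. Of 20 genes, 11 lay below, 3 above and 6 inside, with a median of −0.27. FASLG, the death ligand of cytotoxic lymphocytes, was at −4.37 after death against −3.15, −3.32 and −2.63, a difference of −1.34. DIABLO, which frees caspases from their inhibitors, was at −0.91 against 0.04, −0.26 and 0.65, a difference of −1.06. CYCS, the cytochrome c whose release starts the caspase cascade, was at 3.53 against 4.27, 4.32 and 4.51. BAK1, a pore-forming protein of mitochondria, differed by −0.75, the caspase inhibitor BIRC2 by −0.72 and CASP9 by −0.60. TNFSF10, the death ligand TRAIL, was at 6.11 against 5.44, 5.23 and 5.12, higher by 0.85 and the highest of the 15 arrays. BAX, a partner of BAK1, was at 0.08 against 0.65, −1.50 and 0.76. Relapse aspirate 2 alone put it inside the range, and without that aspirate its difference was −0.63 instead of 0.11.

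Inflammatory mediators lay on both sides of the relapse range. Of 34 named genes 25 were measured, 13 lay above the range and 6 below, and the median was 0.39. IL6, LIF, CSF2 and IL4 were counted only because they were well above background after death, and without them 12 of 21 lay above, 6 below, and the median was 0.39. Among those above, 7 stood out by at least 1. CCL2, the monocyte chemokine, was at 2.61 after death against 0.81, −1.01 and 0.01, higher by 2.67. PTGS2, the inducible cyclooxygenase, was at −0.25 against −2.52, −3.42 and −2.69, higher by 2.62 (limma adjusted p = 0.0952), and PTGES, the next enzyme of prostaglandin E2 synthesis, was higher by 2.08. IL33, an alarmin of stromal and endothelial nuclei, was at 0.88 against −1.12, −1.68 and −1.17, higher by 2.20 and the highest of the 15 arrays. IL6 was at least 3.55-fold higher, CCL8 higher by 1.91 and CCL20 by 1.86.

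Of the 6 mediators below the range, CCL4, a chemokine of activated lymphocytes and macrophages, was at −2.52 after death against −1.41, −0.51 and −1.06, a difference of −1.53. TNF and CCL3 differed by −0.86 and −0.84, the nuclear alarmin HMGB1 by −0.59, IL5 by −0.45 and CXCL10 by −0.39. IL1A and IL1B were among the 9 named genes that were not measured. The list median rested in part on relapse aspirate 3: it was 0.07 without that aspirate and 0.01 with no filter on dim probes.

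**Figure D4:**
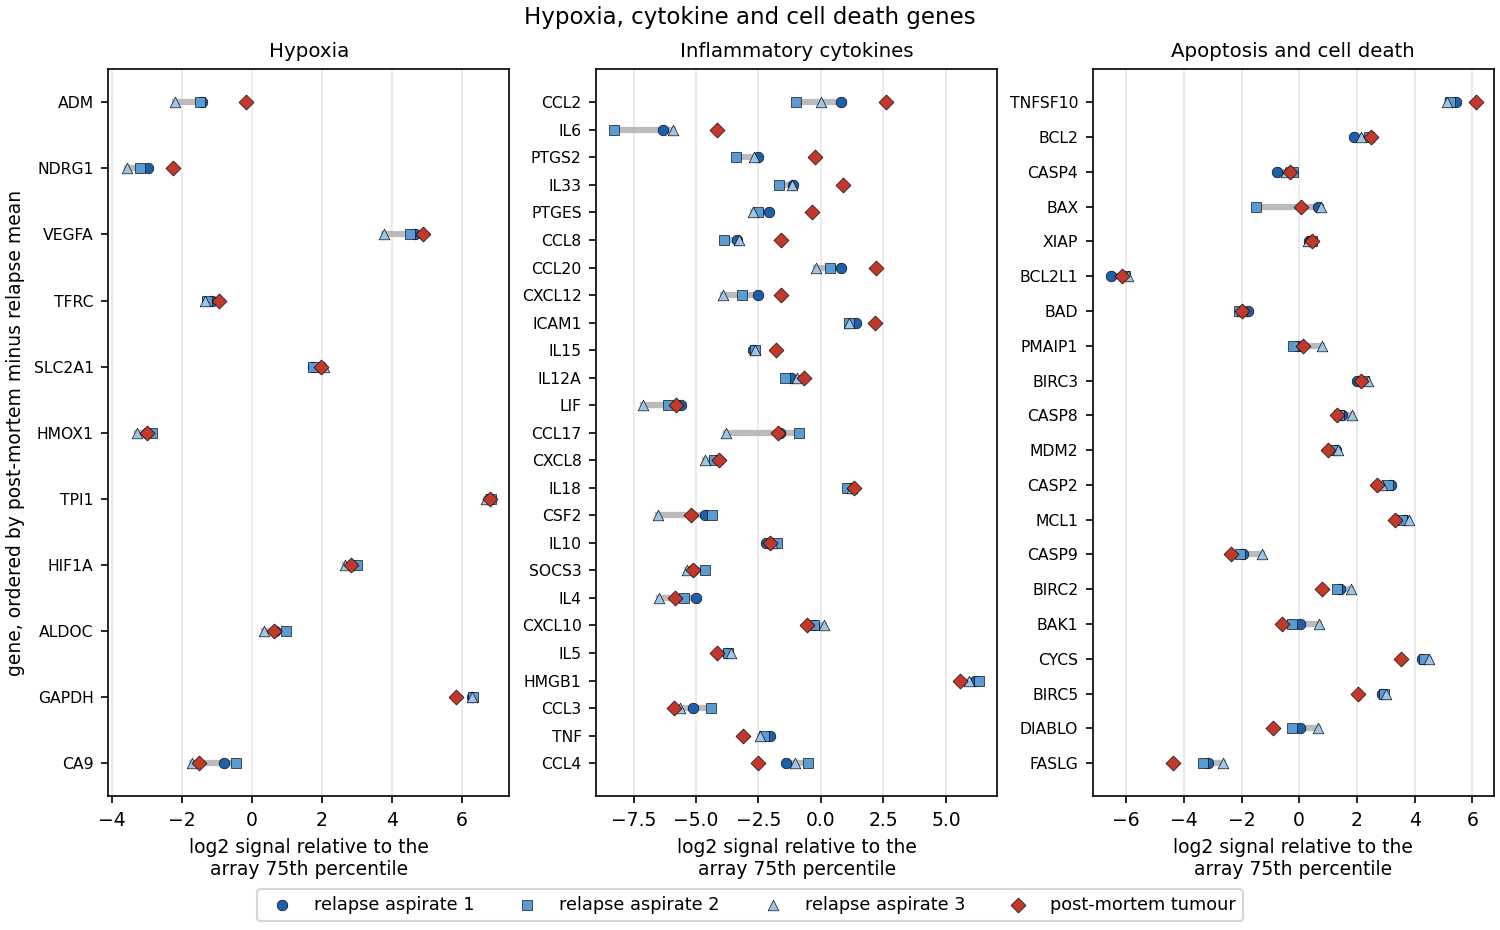
Levels of measured hypoxia, cytokine and cell death genes on the 4 arrays, as log2 signal minus the array's 75th percentile. Red diamonds are the post-mortem tumour, blue symbols the relapse aspirates and grey bars their range. ADM, NDRG1 and the upper cytokines lie to the right of the bars, HIF1A lies on its bar, and the lower cell death genes lie to the left.

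Genes of DNA synthesis and mitosis were lower after death by less than 1 log2 unit. BIRC5, or survivin, which guides chromosomes in mitosis and blocks apoptosis, was at 2.05 against 2.89, 2.95 and 3.00, a difference of −0.90 (SE 0.23, 1.86-fold lower, limma adjusted p = 0.228). The 3 aspirates spanned only 0.11. TYMS, the thymidylate synthase, was at 4.15 against 4.83, 5.05 and 4.99, a difference of −0.81. UBE2S, the ubiquitin-conjugating enzyme that works with the anaphase-promoting complex, was at 2.67 against 3.54, 3.27 and 3.51, a difference of −0.77, and both its probes were lower. ASPM, a spindle pole protein, differed by −0.71. These 4 lay below the range and were lower in every alternative run.

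The other cell cycle genes did not share this. BRCA1, CDKN1B, a cyclin-dependent kinase inhibitor, and BRCA2 lay just above the range, with differences of 0.38, 0.21 and 0.13. CCND1 and CDC25A lay inside it. In total 3 of 10 lay above and 5 below, with a median of −0.45, and by probe 4 of 13 lay above and 7 below (53.8%). MKI67, TOP2A and PCNA were not named on this array. BIRC5 at 2.05 after death stood above the first biopsy of Rosco (−0.51), the second resistant aspirate (−0.82), failed chemotherapy (1.32) and remission (0.69). The B cell marker MS4A1 was also lower in these samples, at −7.16, −6.73, 0.40 and 0.38 in the same order, against 2.04 after death. The part of B cell content or gland content in the BIRC5 contrast was not tested.

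Most T and NK cell genes were at low levels on all 4 arrays, with 0 of 14 above the range and 6 below. KLRD1, a receptor of NK cells, was at −4.35 after death against −3.01, −2.54 and −2.56, a difference of −1.64 (SE 0.30, limma adjusted p = 0.127). CD28, the T cell costimulator, was at −5.32 against −4.52, −3.66 and −4.24. FOXP3, CTLA4 and IL21 lay below the range by only 0.07 to 0.23, and CD40LG at −2.89 lay inside it because relapse aspirate 3 was at −3.00. CD4 and CD8A were inside the range. The list median was −0.70 and −1.07 against relapse aspirates 1 and 2 but −0.11 against relapse aspirate 3, and −0.07 with the normexp background.

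Mitochondrial respiration had 4 named genes, and all 4 lay below the range, by differences of −0.51 to −0.83. Besides CYCS these were SDHB, a subunit of succinate dehydrogenase, ATP5F1A of the ATP synthase and COX8A of cytochrome oxidase. COX8A was at 4.43 after death against 5.02, 5.17 and 5.02. All 6 probes of the list lay below the range. Of 19 ribosomal protein genes 15 lay inside the range and 4 below it, with a median of −0.09. RPL18, RPL7, RPL23 and RPL21 had the largest differences, at −0.62, −0.51, −0.43 and −0.32. Of these RPL21 lay inside the range, and the remaining gene below it was RPL4, at −0.28.

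Antigen presentation genes were lower in part. Of 16 genes 9 lay below the range and 3 above, with a median of −0.20. These counts rest in part on small gaps to the range. DLA-DRA, DLA-DQB1 and TAP2 lay just below it, with gaps of −0.08, −0.06 and −0.01, and DLA-79 was closer still. DLA-64 and DLA88 lay just above it, each by 0.04. DLA-DMB and DLA-DMA, which load peptides on class II molecules, differed by −1.06 and −0.91, the related DLA-DOB by −0.72 and the immunoproteasome subunit PSMB8 by −0.64. DLA-DMB was at 1.54 after death against 2.54, 2.30 and 2.98. The class I genes DLA-64 and DLA88 were higher by 0.13 and 0.10. DLA genes resemble one another closely, and cross-hybridisation between them was not tested. Among 8 interferon response genes 3 lay above and 3 below, with OAS3 at 0.83, OAS1 at −0.53, OASL at −0.47 and TRIM34 at −0.94.

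**Figure D5:**
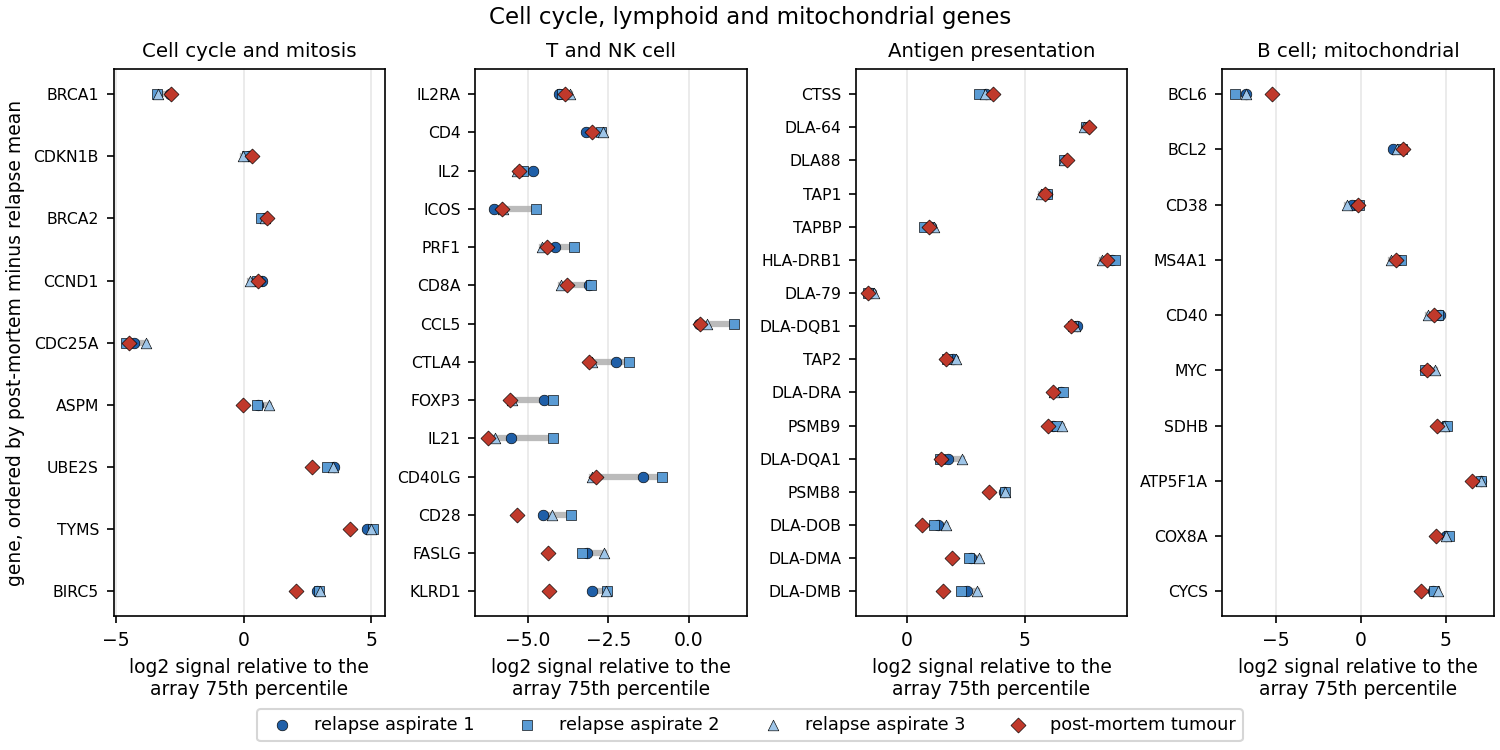
Levels of measured cell cycle, T and NK cell, antigen presentation, B cell and mitochondrial genes on the 4 arrays, as log2 signal minus the array's 75th percentile. Red diamonds are the post-mortem tumour, blue symbols the relapse aspirates and grey bars their range. ASPM, UBE2S, TYMS and BIRC5 lie to the left of their bars, MS4A1 lies on its bar, and all 4 mitochondrial genes lie to the left.

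Measured myeloid and blood genes differed by less than 1 log2 unit, apart from the neutrophil genes S100A8 and CAMP, lower by 2.17 and 1.08. Of 13 macrophage genes 6 lay above the range and 1 below, with a median of 0.26, or 0.02 with median centring. TLR4, the receptor for bacterial lipopolysaccharide, was higher by 0.92, the signalling chain FCER1G by 0.90, the protease CTSS by 0.41 and CD163 by 0.40, the last inside the range. Of 8 neutrophil genes 3 lay above and 3 below. S100A8, a subunit of the neutrophil protein calprotectin, was at −1.44 after death against 0.70, 2.30 and −0.82, and CAMP, an antimicrobial peptide, at −2.93 against −1.88, −0.85 and −2.82. The aspirates spread over 3.12 and 1.97 in these genes, and relapse aspirate 3 was next to the post-mortem level in both. MMP9 was higher by 0.52 and CEACAM1 differed by −0.33. The 4 probes of MMP9 ran from −0.47 to 0.52, with 2 of them higher. CEACAM1 was higher by 0.93 on its other probe, so the sign of both genes is uncertain. Of 10 measured erythroid and platelet genes 4 lay above and 3 below, with GYPC at −0.77, SELP at 0.63, CA2 at −0.49 and ITGB3 at least 1.09-fold higher.

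The largest difference in either direction among named genes was that of LOC609402, for which the tables give no other name. It was at 0.58 after death against 6.62, 9.38 and 5.0, a difference of −6.42 (SE 1.68, 85.5-fold lower, limma adjusted p = 0.231). Both probes agreed, at −6.42 and −6.60. The aspirates spread over 4.38, yet the post-mortem level was 4.42 below the lowest of them. It was also the lowest of the 15 arrays, the others lying between 1.74 and 9.82.

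CYP3A26, a drug-metabolising cytochrome of the liver, was at −5.83 after death against −4.08, −4.39 and −3.44, a difference of −1.86. It was well above background on these 4 arrays and on none of the other 11. LOC480600 differed by −1.74. Further genes with the largest downward differences were HNRNPK, an RNA-binding protein, at −1.39, and GNG10, a G protein subunit, at −1.37. RAB5C, an endosome GTPase, differed by −1.27 and MAL, a membrane protein, by −1.19. MAL lay only 0.13 below the lowest aspirate, and the aspirates spread over 1.94. PPP1CA, a catalytic subunit of protein phosphatase 1, differed by −1.18, SRP54 of the signal recognition particle by −1.16, TNFRSF18 by −1.05 and the purine salvage enzyme HPRT1 by −1.03. Other probes of HNRNPK and SRP54 reached only −0.37 and −0.48.

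ABCB1 and ABCC5, drug efflux pumps studied because lymphoma becomes resistant to chemotherapy, lay on opposite sides of the relapse range. ABCB1, or P-glycoprotein, was at −5.12 after death against −3.39, −3.15 and −4.73, the lowest of the 15 arrays. It lay only 0.39 below the lowest aspirate, and the aspirates spread over 1.58. ABCC5, chosen after its values were seen, was at −0.24 against −2.32, −2.46 and −2.81, higher by 2.30.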

How the data were processed

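Single-colour array data of 15 canine samples were used. Per the file headers, intensity values of the spots were read out with Agilent Feature Extraction 11.0.1.1, which subtracts background within each array and does not scale between arrays. The deposited series table holds the spot median intensity minus the local background median: all 678300 of 678300 cells matched the scanner values to within 0.01. Flag columns were deposited too, coded 0 or 1 for each spot.

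Here log2 was taken of the processed signal, the 75th percentile of each array was subtracted, control and outlying spots were left out (2 to 50 per array), and spots of 1 probe were averaged. RefSeq identifiers gave symbols to 2186 of 43603 probes, or 1357 genes. Of several probes of a gene, the one with the highest mean over the 15 arrays was used. The 36604 targets were kept when well above background on the post-mortem array or on all 3 relapse arrays, which left 27116. Limma 3.58.1 in R 4.3.3 compared 1 array with 3, with two-sided p-values adjusted by Benjamini-Hochberg over the targets kept, at a threshold of 0.05. The fit was run on simulated data in which the post-mortem array varied like the relapse arrays, so that assumption was not tested. SE is that of the limma fit.

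Named genes were the 20 highest and 20 lowest differences outside the relapse range, the 4 largest absolute differences in each list, and a short fixed set. Further list members and ABCC5 were chosen after their values were seen. Members and lists were chosen with earlier results of these data known. Lists were matched by current symbol only. Some list genes are counted in their lists but not reported or plotted singly here. Alternatives changed the scaling, background, filter, probe rule, spread estimate and slide block, used the deposited table, or left out 1 aspirate. A slide block with random effect could not be fitted on the 4 arrays and was fitted on all 15.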

Additional observations from a re-analysis of the deposited data

Results flagged for a closer look

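MS4A1 stood apart in 1 of the 4 drug-resistant biopsies. It was at −7.16 in the first biopsy of Rosco, while the other 3 biopsies lay between 2.68 and 3.18, a gap of 0.952 of the whole range. Chance alone takes about 1 of 20 groups of 4 past the limit used for such gaps (Dixon's 95% critical value), and this gap lay beyond that limit.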

How the results depend on the processing

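The stromal lists stayed higher in every alternative run, while medians near 0 changed sign with the scaling. Targets called by limma numbered 75 with quantile normalisation (75 higher), 144 with the normexp background (141 higher, 3 lower), 14 with the mean over all probes (14 higher), and 0 in the remaining alternatives that kept all aspirates. Without 1 aspirate they numbered 0 to 431 (0 to 408 higher, 0 to 23 lower), and targets below the range by at least 1 numbered 194 to 375. The latter were 405 with median centring, 230 with quantile normalisation, 36 with normexp, 193 with no filter on dim probes and 509 within the slide of the post-mortem array. Targets above by at least 1 numbered 459 with normexp and 865 when well above background on all 4 arrays. With normexp the medians were 1.06 (fibroblast and matrix), 0.94 (endothelium), 1.08 (lymph node stroma) and −0.065 (T and NK cell), and within the slide they were 1.1 (endothelium), 0.91 (lymph node stroma), 0.025 (macrophage), 0.0068 (erythroid and platelet) and 0.15 (interferon). With median centring they were −0.69 (cell cycle), −0.51 (cell death), −0.44 (antigen presentation), −0.27 (heat shock), −0.15 (hypoxia), −0.11 (exocrine gland), −0.10 (B cell), −0.023 (erythroid and platelet) and 0.022 (macrophage). Quantile normalisation gave −0.11 (exocrine gland) and 0.043 (erythroid and platelet). The mean over all probes gave −0.32 (skeletal muscle), 0.10 (macrophage) and −0.43 (antigen presentation). The B cell median was −0.053 with no filter, with the filter on all 4 arrays and with the filter on at least 1 array, and the cytokine median was 0.013 with no filter. Without 1 aspirate the median ran from 1.24 to 1.61 for lymph node stroma, from −0.10 to 0.24 for exocrine gland and from −0.091 to 0.25 for erythroid and platelet genes.

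Single genes with differences near 0 changed sign. With median centring the values were −0.19 for PPARG, −0.041 for MYH1, −0.079 for LTF, −0.13 for NR4A1 and −0.13 for BAX. With quantile normalisation they were −0.20 for PPARG, −0.015 for MYH3, −0.055 for MYH1, −0.011 for LTF, −0.076 for NR4A1, 0.079 for MS4A1 and 0.14 for HIF1A. With normexp they were 0.0078 for SLPI, 0.17 for CEACAM1, 0.0055 for FOSB and 0.028 for CDC25A. The mean over all probes gave −0.37 for MYH3, −0.53 for MYH1, −0.25 for SPINK5, 0.30 for CEACAM1, 0.14 for HIF1A and −0.044 for BAX. The deposited table gave −0.0014 for NR4A1 and 0.0028 for FOSB, and all 15 arrays with a random slide block gave −0.036 for NR4A1. Within the slide the values were −0.29 for PPARG, −0.49 for CD163, 0.26 for OASL and −0.58 for BAX. Without 1 aspirate they ran from −0.16 to 0.23 for PPARG, −0.27 to 0.051 for SLPI, −0.27 to 0.019 for MYC, −0.14 to 0.58 for NR4A1, −0.15 to 0.077 for FOSB, −0.21 to 0.063 for MS4A1, −0.11 to 0.0602 for HIF1A and −0.63 to 0.50 for BAX. The cause of these shifts was not tested. The within-slide values, the random slide block and the filter on at least 1 array were chosen after seeing the data. No paired analysis was possible because the post-mortem side is 1 sample. Signals within the background of an aspirate array limit 5 of the 20 largest upward differences to lower bounds, and a further 1, ANGPT2, was not well above background on relapse aspirate 2.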
